A study of Homo sapiens with 16 samples.

Results

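The antioxidant response that the transcription factor NRF2 controls was followed through 9 genes in T24 bladder cancer cells as they acquired resistance to gemcitabine. The genes were chosen by name, with earlier results of these data known, out of the 39007 gene symbols of the deposited table. They are NFE2L2, which encodes NRF2, its inhibitor KEAP1, and the target genes NQO1, HMOX1, GCLM, GCLC, SLC7A11, TXNRD1 and SRXN1. All 9 were found in the table, and all 9 passed the filter on low values, a mean above 1 CPM (the read count scaled to one common library total). T24 is an established human urothelial cancer cell line, and gemcitabine is a nucleoside analog used as chemotherapy. RNA was sequenced from 16 libraries, 4 from each of 4 phases, which are the parental cells (P0) and cells of an early (P3), an intermediate (P7) and a late (P15) phase. According to the study's methods a phase is a round of gemcitabine exposure followed by regrowth of the surviving cells in medium, so P3, P7 and P15 are successive stages of a single derived line (GRC1). All groups share the T24 background and the same culture medium. Whether gemcitabine was present at harvest is not stated in the sources used here. The titles of all 16 libraries carry the letters NT, which these sources do not explain. Nothing states that the 4 libraries of a phase came from separate cultures, so the p-values measure only the spread between these libraries.

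NRF2 is a basic leucine zipper factor that the adaptor KEAP1 holds in the cytoplasm and presents to a CUL3 ubiquitin ligase for degradation. Oxidants and electrophiles modify cysteines of KEAP1, NRF2 then accumulates, pairs with a small MAF protein and binds antioxidant response elements, from which the repressor BACH1 is displaced. The targets supply glutathione, reduced thioredoxin and NADPH and detoxify quinones and heme, and the pathway is known for raising the tolerance of tumour cells to drugs. Since control of NRF2 lies largely in the stability of the protein, the messenger level of NFE2L2 is not a measure of its activity.

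The core of the antioxidant response element was searched as TGACNNNGC and, for the opposite strand, GCNNNGTCA in RefSeq promoters on GRCh38.p14, each running from 250 bases before to 50 bases after a start site. The table held 10 promoters of 7 of the genes. HMOX1 and SLC7A11 had no promoter among them and were not searched. A match was present in 4 of the 10 promoters, those of 3 genes (GCLM, TXNRD1 and KEAP1), and in 13.3% of all 35116 promoters. The promoters with a match are shown with the matching letters in capitals. GCLM and TXNRD1 rose and KEAP1 fell from P0 to P15. Of the genes without a match in these windows, NFE2L2, GCLC and SRXN1 rose and NQO1 fell over the same phases. Elements outside these windows were not searched. The GCLM promoter lies at chr1:93909381-93909680 and the second KEAP1 promoter at chr19:10502722-10503021, both on the minus strand. The TXNRD1 promoters lie at chr12:104215529-104215828 and chr12:104286782-104287081 on the plus strand.
GCLM: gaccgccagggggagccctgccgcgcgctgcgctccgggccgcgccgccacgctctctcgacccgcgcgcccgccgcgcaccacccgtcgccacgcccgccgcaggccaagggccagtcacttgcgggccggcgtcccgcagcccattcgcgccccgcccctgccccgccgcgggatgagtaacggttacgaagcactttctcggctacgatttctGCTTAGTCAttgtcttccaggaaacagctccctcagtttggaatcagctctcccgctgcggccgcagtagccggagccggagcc
KEAP1, second promoter: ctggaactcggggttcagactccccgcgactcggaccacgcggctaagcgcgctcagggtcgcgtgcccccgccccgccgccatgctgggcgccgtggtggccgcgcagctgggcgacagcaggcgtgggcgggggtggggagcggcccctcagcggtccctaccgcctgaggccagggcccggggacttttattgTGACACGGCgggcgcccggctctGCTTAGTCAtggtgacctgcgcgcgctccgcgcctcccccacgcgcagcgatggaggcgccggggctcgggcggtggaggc
TXNRD1, first promoter: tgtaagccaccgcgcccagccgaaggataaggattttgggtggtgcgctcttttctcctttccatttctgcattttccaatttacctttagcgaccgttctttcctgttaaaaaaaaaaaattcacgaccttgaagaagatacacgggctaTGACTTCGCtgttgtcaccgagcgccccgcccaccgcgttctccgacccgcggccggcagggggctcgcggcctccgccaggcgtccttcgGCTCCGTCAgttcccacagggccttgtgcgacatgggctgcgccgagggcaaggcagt
TXNRD1, second promoter: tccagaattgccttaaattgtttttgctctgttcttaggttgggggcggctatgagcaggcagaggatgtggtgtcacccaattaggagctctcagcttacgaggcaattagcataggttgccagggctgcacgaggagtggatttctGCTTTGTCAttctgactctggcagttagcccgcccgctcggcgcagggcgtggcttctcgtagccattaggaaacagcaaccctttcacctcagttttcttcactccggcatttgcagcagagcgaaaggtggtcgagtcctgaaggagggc
The same letters, GCTTAGTCA, stood in the GCLM promoter, where they began 34 bases before the start site, and in the second KEAP1 promoter, where they began 31 bases before it. A match is a description of these letters and not of binding, which was not measured.

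The step between the lowest values put the depth of the libraries at 33800000 to 50000000 counts. Libraries of the same phase had Pearson correlations across genes of 0.9965 to 0.9984. The 9 genes rested on an estimated 651 or more reads in each library, except SRXN1, with 39 to 331, where counting alone gives an error of up to 16%. Phases were compared with limma on the deposited log2 values over 13249 genes, and a gene is called higher or lower at a Benjamini-Hochberg adjusted p-value below 0.05. Late phase P15 differed from the other phases over much of the transcriptome, so counts are given with the share of all genes tested that was called. Of 11 epithelial and urothelial markers, 7 were tested and 6 of them were called lower in P15 than in P0, with KRT19 at 6.43 ± 0.06 (log2, SD, n = 4 libraries) in P0 and 0.02 ± 0.04 in P15, KRT7 at 9.90 ± 0.06 and 3.64 ± 0.07, and KRT18 called higher, at 8.88 ± 0.03 and 9.31 ± 0.07. In this comparison 40.9% of all genes tested were called lower, and 11.4% by 2-fold or more, as were these 6 markers. The summed level of all 11 markers was 2145 to 2220 CPM in the P0 libraries and 677 to 755.7 CPM in the P15 libraries. KRT18 alone had means of 471 CPM in P0 and 633 CPM in P15. CDH1, UPK1B, UPK2 and UPK3A had means over the 16 libraries below 1 CPM. So had 7 of 8 leukocyte, endothelial and fibroblast markers, and COL1A1 rose from 5.01 to 24 CPM in P15. The summed level of these 8 was 5.697 to 6.332 CPM in P0 and 23.76 to 27.32 CPM in P15. The part of these marker changes in the results on the NRF2 genes was not tested.

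In late phase P15, 7 of the 9 genes were called higher than in parental phase P0 (NFE2L2, HMOX1, GCLM, GCLC, SLC7A11, TXNRD1 and SRXN1) and 2 were called lower (KEAP1 and NQO1). Over all genes tested, 45.3% were called higher and 40.9% lower in this comparison. Of the 9 genes, 5 rose by 2-fold or more and none fell by as much, against 12.1% and 11.4% of all genes tested. The median log2 fold change of the 9 genes was 1.05, and that of all genes tested was 0.04. Since the 9 genes were chosen with earlier results of these data known, these contrasts with all genes are not independent of the data. For each of the 9 genes the P0 and P15 libraries did not overlap. The share of all genes tested without such overlap was not counted, so whether it sets the 9 genes apart is not known. In bulk RNA, a change in a share of the cells and a change in all cells cannot be told apart.

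**Figure D1:**
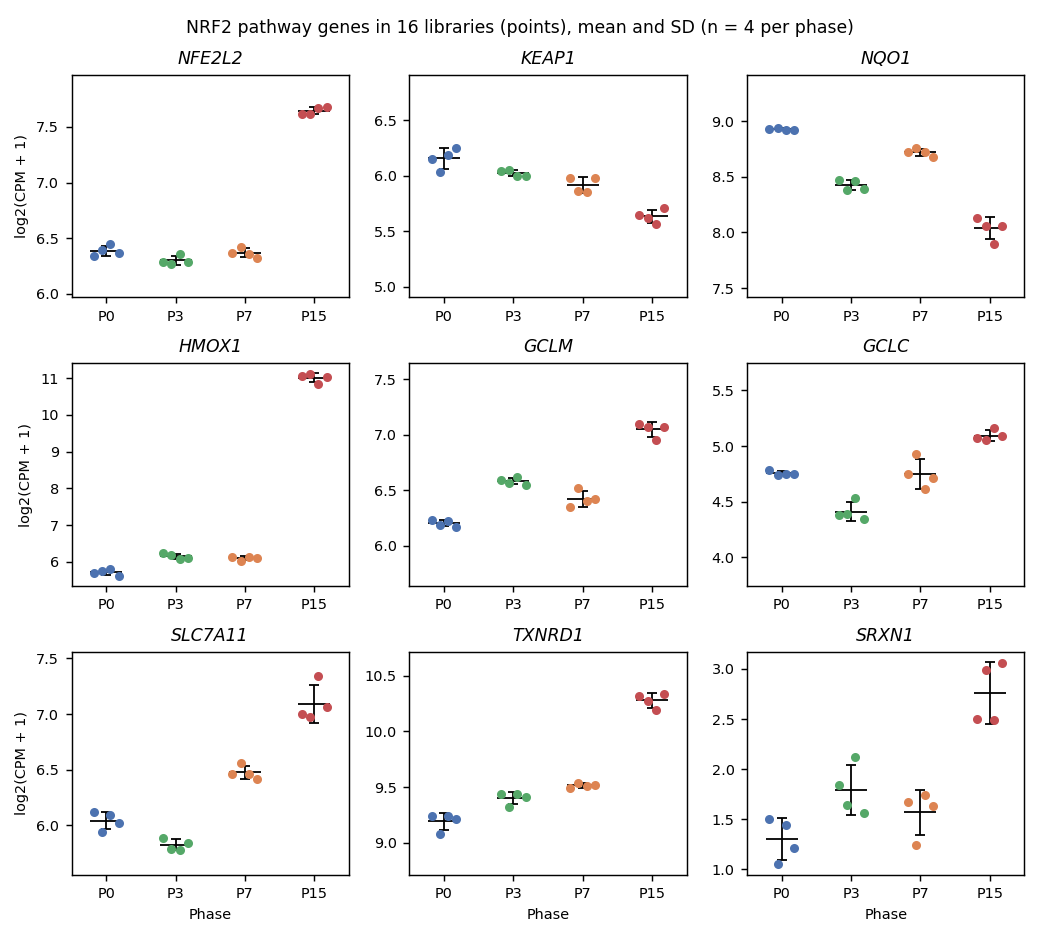
Log2(CPM + 1) of the 9 genes (vertical axes, each spanning at least 2 units) in the 4 libraries of each phase (points), with the mean and SD (black). HMOX1 stands near 11 in P15 and near 6 in the other phases, NFE2L2 is flat until P15, and KEAP1 and NQO1 are lowest in P15.

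HMOX1 (chromosome 22 of GRCh38, 35380361 to 35394214) encodes heme oxygenase 1, which breaks heme into biliverdin, carbon monoxide and iron. It had 50.6, 52.4, 54.3 and 48.2 CPM in the P0 libraries, 74.1, 71.0, 66.6 and 67.1 in P3, 68.6, 63.4, 69.5 and 67.6 in P7 and 2149, 2209, 1845 and 2105 in P15. The P15 libraries stood far above all others, and the P3 and P7 libraries overlapped. The mean in P15 was 40.4 times that in P0 and 30.9 times that in P7. On the log2(CPM + 1) scale the rise from P0 to P15 was 5.31 (SE 0.05, limma adjusted p = 3.2e-30), and 0.174% of the genes tested rose more. The rise from P0 to P3 was 0.43 (SE 0.05, limma adjusted p = 3.4e-08), and P7 differed from P3 by -0.05 (SE 0.05, limma adjusted p = 0.39), which did not pass the threshold. HMOX1 made up 3.6 ± 0.2% of the summed CPM of the 9 genes in P0 (SD, n = 4 libraries), 5.0 ± 0.3% in P3, 4.3 ± 0.2% in P7 and 50.1 ± 1.6% in P15.

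NFE2L2 (chromosome 2, 177218667 to 177392756) had 80.0, 82.9, 86.4 and 81.7 CPM in P0, 77.2, 76.2, 81.1 and 77.2 in P3, 81.7, 84.6, 81.1 and 78.9 in P7, and 196, 196, 203 and 204 in P15. The first 3 phases overlapped and P15 lay above all of them. NFE2L2 rose by 1.28 on the log2 scale from P7 to P15 (SE 0.03, limma adjusted p = 4.1e-21). From P0 to P3 it changed by -0.08 (SE 0.03, limma adjusted p = 0.028), a call that was lost without replicate 3 of P0 (-0.06, limma adjusted p = 0.11) and without replicate 1, 2 or 4 of P3, where it was -0.08 to -0.07. From P3 to P7 it changed by 0.06 (SE 0.03, limma adjusted p = 0.1), which was not called, and by 0.08 without replicate 3 of P3 (limma adjusted p = 0.049). In GENCODE version 44, exons of HNRNPA3 on the opposite strand cover 23.4% of the exon bases of NFE2L2. HNRNPA3, chosen here after its values were seen, rose by 0.48 from P7 to P15, and with the strand setting not given, reads of the shared stretch cannot be assigned to either gene.

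KEAP1 (chromosome 19, 10486125 to 10503558) moved down along the phases. It had 70, 64.3, 72 and 75.1 CPM in P0, 64.8, 65.3, 63.0 and 63.0 in P3, 62.1, 57.1, 56.7 and 62.1 in P7 and 49.2, 48.2, 46.5 and 51.3 in P15. The P0 and P3 libraries overlapped, and those of P15 were the lowest. Its log2 fold change from P0 to P15 was -0.52 (SE 0.05, limma adjusted p = 1.4e-10), with steps of -0.13 at P3 (SE 0.05, limma adjusted p = 0.013), -0.10 at P7 (SE 0.05, limma adjusted p = 0.051) and -0.28 at P15 (SE 0.05, limma adjusted p = 4e-06). The step at P3 was -0.10 and no longer called without replicate 4 of P0 (limma adjusted p = 0.065).

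The log2 value of NFE2L2 minus that of KEAP1 in the same library was 0.23 ± 0.10 in P0 (SD, n = 4 libraries), 0.28 ± 0.06 in P3, 0.45 ± 0.10 in P7 and 2.01 ± 0.06 in P15. The change from P7 to P15 was 1.56 (exact permutation test, two-sided, p = 0.029, the smallest that 4 against 4 libraries allow, adjusted p = 0.038 over 12 such comparisons). The step from P3 to P7 was 0.17 (exact permutation test, two-sided, p = 0.057, adjusted p = 0.062), or 0.21 without replicate 4 of P7 (exact permutation test, p = 0.029, adjusted p = 0.034), and that from P0 to P3 was 0.05 (exact permutation test, two-sided, p = 0.49).

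NQO1 (chromosome 16, 69706996 to 69726668) encodes a quinone reductase that is widely used as a readout of NRF2, and it moved against HMOX1. It had 487, 490, 483 and 483 CPM in P0, 354, 332, 351 and 334 in P3, 421, 433, 421 and 409 in P7 and 279, 266, 238 and 266 in P15. No 2 phases overlapped, with P0 highest, then P7, P3 and P15. On the log2 scale NQO1 changed by -0.50 between P0 and P3 (SE 0.04, limma adjusted p = 2.1e-11), 0.29 from P3 to P7 (SE 0.04, limma adjusted p = 3.7e-07) and -0.68 from P7 to P15 (SE 0.04, limma adjusted p = 1.1e-14). From P0 to P15 it was -0.89 (SE 0.04, limma adjusted p = 5.6e-17), the largest fall among the 9 genes.

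GCLM and GCLC encode the modifier and the catalytic subunit of glutamate-cysteine ligase, the rate-limiting enzyme of glutathione synthesis. GCLM (chromosome 1, 93885199 to 93909456) had 74.1, 72, 73.5 and 71.0 CPM in P0, 95.3, 94.0, 97.4 and 92.7 in P3, 80.6, 90.8, 83.4 and 84.6 in P7 and 136, 133, 123 and 133 in P15. No 2 phases overlapped. Its level rose by 0.38 from P0 to P3 (SE 0.04, limma adjusted p = 4.8e-09), fell by 0.16 from P3 to P7 (SE 0.04, limma adjusted p = 0.00094) and rose by 0.62 from P7 to P15 (SE 0.04, limma adjusted p = 1.1e-13). GCLC (chromosome 6, 53497341 to 53616970) had 26.5, 25.7, 25.9 and 25.9 CPM in P0, 19.8, 20, 22.1 and 19.3 in P3, 25.9, 29.5, 23.4 and 25.2 in P7 and 32.6, 32.1, 34.8 and 33.1 in P15. It was lowest in P3 and highest in P15, and the libraries of P0 and P7 overlapped. It changed by -0.34 on the log2 scale between P0 and P3 (SE 0.06, limma adjusted p = 1.2e-05) and 0.34 from P7 to P15 (SE 0.06, limma adjusted p = 6.6e-06).

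The subunit genes moved apart at P3. The log2 value of GCLM minus that of GCLC was 1.45 ± 0.02 in P0 (SD, n = 4 libraries), 2.17 ± 0.06 in P3, 1.67 ± 0.10 in P7 and 1.96 ± 0.11 in P15. This difference rose by 0.73 between P0 and P3 and changed by -0.50 from P3 to P7 (exact permutation tests, two-sided, p = 0.029 and adjusted p = 0.038 each). From P7 to P15 it changed by 0.28 (exact permutation test, two-sided, p = 0.057, adjusted p = 0.062), or by 0.34 without replicate 3 of P15 (exact permutation test, p = 0.029, adjusted p = 0.034). From P0 to P15 it changed by 0.51 (exact permutation test, two-sided, p = 0.029, adjusted p = 0.038).

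**Figure D2:**
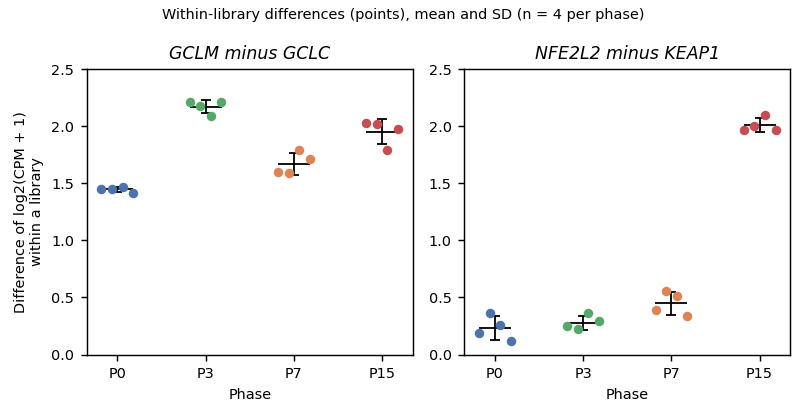
Difference of the log2(CPM + 1) values of GCLM and GCLC (left) and of NFE2L2 and KEAP1 (right) within each library (points) by phase, with the mean and SD (black). The left difference is highest in P3, at 2.17, and the right one stands at 2.01 in P15 and below 0.6 in each library of the other phases.

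SLC7A11 (chromosome 4, 138164097 to 138242349) encodes xCT, the cystine importer that feeds glutathione synthesis and that pairs with the heavy chain SLC3A2. It had 68.6, 60.4, 67.1 and 63.9 CPM in P0, 58.3, 54.3, 53.9 and 56.3 in P3, 87.0, 93.4, 87.0 and 84.6 in P7 and 127, 124, 161 and 132 in P15. No 2 phases overlapped, and replicate 3 was the highest library of P15. Its level changed by -0.22 on the log2 scale between P0 and P3 (SE 0.06, limma adjusted p = 0.0022), 0.65 from P3 to P7 (SE 0.06, limma adjusted p = 1.8e-09) and 0.62 from P7 to P15 (SE 0.06, limma adjusted p = 6e-10). It was the only one of the 9 genes to change by more than 0.5 between P3 and P7. SLC3A2 was 8.39 ± 0.02 in P0 (log2, SD, n = 4 libraries), 8.74 ± 0.02 in P3, 8.86 ± 0.02 in P7 and 8.66 ± 0.02 in P15. SLC7A11 minus SLC3A2 changed by -0.56 from P0 to P3, by 0.52 from P3 to P7 and by 0.82 from P7 to P15 (exact permutation tests, two-sided, p = 0.029 and adjusted p = 0.038 each), so the pair changed unequally at each step.

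TXNRD1 (chromosome 12, 104215779 to 104350307) encodes thioredoxin reductase 1, which keeps thioredoxin reduced with NADPH. It had 604, 540, 604 and 591 CPM in P0, 694, 638, 694 and 679 in P3, 718, 743, 728 and 733 in P7 and 1277, 1234, 1167 and 1295 in P15. TXNRD1 rose at each step with no overlap between phases, by 0.21 at P3 (SE 0.04, limma adjusted p = 3.7e-05), 0.11 at P7 (SE 0.04, limma adjusted p = 0.015) and 0.77 at P15 (SE 0.04, limma adjusted p = 2e-15). Without replicate 2 of P3 the step at P7 was 0.08 and was not called (limma adjusted p = 0.071). SRXN1 (chromosome 20, 646615 to 653200) encodes sulfiredoxin, which repairs overoxidised peroxiredoxins. It was the lowest of the 9 genes, with 1.83, 1.07, 1.71 and 1.31 CPM in P0, 2.58, 2.12, 3.35 and 1.95 in P3, 2.18, 1.36, 2.34 and 2.10 in P7 and 4.66, 6.94, 4.62 and 7.34 in P15. All P15 libraries lay above all others, by 1.46 on the log2 scale against P0 (SE 0.15, limma adjusted p = 1.5e-09). At this level the pseudocount of 1 lowers the change, and the ratio of the mean CPM was 3.98. Exons of a gene on the same strand cover 90.7% of the exon bases of SRXN1 in GENCODE version 44, so the counts of SRXN1 may leave out reads that fit both. The deposited values hold no entry under the identifier of that other gene, and whether the authors' annotation held it is not known.

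In the step from P0 to P3, 4 of the 9 genes were called higher (HMOX1, GCLM, TXNRD1 and SRXN1) and 5 lower (NFE2L2, KEAP1, NQO1, GCLC and SLC7A11). Of all genes tested, 31.4% were called higher and 37.3% lower. None of the 9 changed by 2-fold, as 1.95% of all genes did upward and 2.51% downward. In the step from P3 to P7, 4 were called higher (NQO1, GCLC, SLC7A11 and TXNRD1) and 1 lower (GCLM), against 30.3% and 28.0% of all genes, and again none by 2-fold, against 0.989% upward and 0.845% downward. In the step from P7 to P15, 7 were called higher and 2 lower, the same genes as against P0, beside 46.3% and 40.1% of all genes. By 2-fold or more, 3 rose (NFE2L2, HMOX1 and SRXN1) and none fell, where 13.4% of all genes rose and 12.1% fell. The steps share libraries of the phase between them, so the calls of neighbouring steps are not independent.

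**Figure D3:**
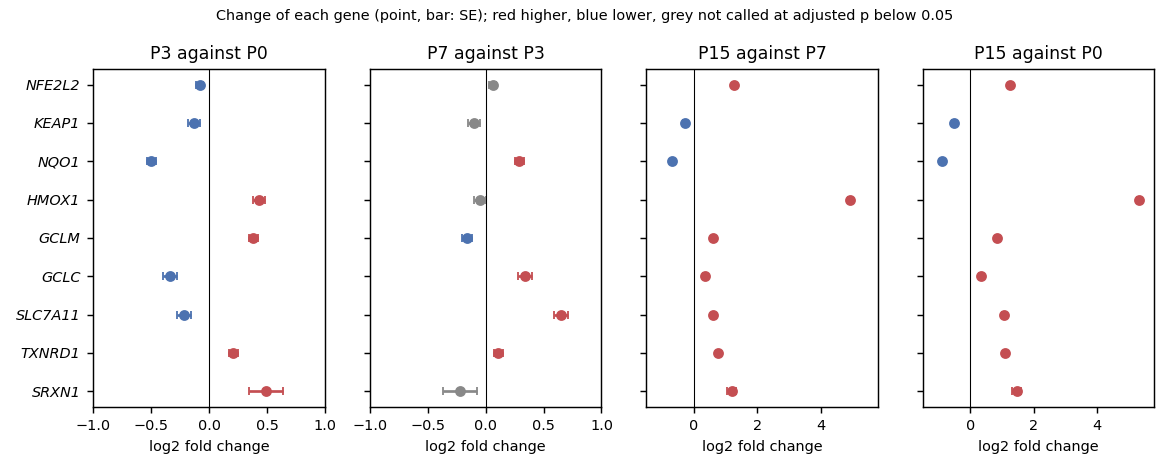
Log2 fold change (horizontal axis, wider in the comparisons with P15) of each of the 9 genes in 4 comparisons, with bars for the standard error. Red points were called higher, blue points lower and grey points were not called, and HMOX1 stands at 4.92 and 5.31 in the comparisons with P15.

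Levels were compared between the 9 genes as mean CPM per kilobase of the canonical transcript. The order depends on these lengths, and which transcripts the cells used was not examined. In P0 the order was NQO1 (193), TXNRD1 (151), NFE2L2 (33.8), HMOX1 (33.2), KEAP1 (27.5), GCLM (14.9), GCLC (6.86), SLC7A11 (6.74) and SRXN1 (0.586), and the libraries of NFE2L2 and HMOX1 overlapped, as did those of GCLC and SLC7A11. In P3 and P7 TXNRD1 was first and NQO1 second. In P15 HMOX1 was first at 1340, above TXNRD1 at 322 and NQO1 at 104, with no overlap between their libraries, and NFE2L2 came next at 81.4. GCLM, at 26.9, stood above KEAP1, at 19.1, where in P0 it had stood below it.

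The genes around NRF2 were taken from lists of its regulators and further targets, also chosen with earlier results of these data known. Of 9 regulators and partners, 5 were called higher and 4 lower in P15 than in P0, with a median log2 fold change of 0.22. These counts are near the shares of all genes tested, 45.3% higher and 40.9% lower. The largest rises were those of the repressor BACH1 (1.04, SE 0.04, limma adjusted p = 2.8e-17) and the small MAF gene MAFK (0.96, SE 0.06, limma adjusted p = 2.3e-13). The largest falls were those of SQSTM1, whose product p62 competes for KEAP1 (-1.09, SE 0.04, limma adjusted p = 4.7e-17), and RBX1, a subunit of the CUL3 ligase (-0.63, SE 0.05, limma adjusted p = 5.6e-11). At P3, 7 of the 9 were called higher, such as MAFF (0.93, SE 0.05, limma adjusted p = 6.8e-14), and 2 lower, against 31.4% and 37.3% of all genes tested.

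Of 7 glutathione and thioredoxin partners 6 were tested, and 4 were called higher and 2 lower in P15 than in P0, beside 45.3% and 40.9% of all genes tested and all by less than 2-fold. TXN, encoding thioredoxin, rose by 0.56 (SE 0.04, limma adjusted p = 9.1e-13) and GSS, encoding glutathione synthetase, by 0.37 (SE 0.03, limma adjusted p = 2.1e-10). The peroxiredoxin PRDX1 fell by 0.45 (SE 0.04, limma adjusted p = 3.1e-11) and glutathione reductase GSR by 0.21 (SE 0.05, limma adjusted p = 0.00036). Of 4 genes that supply NADPH or take part in the pentose phosphate pathway, 2 were called higher and 1 lower in P15 than in P0, beside 45.3% and 40.9% of all genes tested. TALDO1, encoding transaldolase, fell by 1.14 (SE 0.03, limma adjusted p = 2.6e-21), while PGD rose by 0.47 and TKT by 0.31. At P3, 3 of these 4 were called lower and none higher, beside 37.3% and 31.4% of all genes tested, with a median log2 fold change of -0.53 beside -0.02 over all genes tested.

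Of 3 genes of iron and heme handling, 2 were called higher and 1 lower in P15 than in P0, beside 45.3% and 40.9% of all genes tested. FTL, the ferritin light chain, rose by 1.07 from P0 to P15 (SE 0.04, limma adjusted p = 2.1e-18), and BLVRB, biliverdin reductase B, by 1.33 (SE 0.05, limma adjusted p = 2e-18). FTH1, the ferritin heavy chain, was 11.48 ± 0.08 in P0 (log2, SD, n = 4 libraries) and 9.82 ± 0.17 in P15, a fall by 1.67 (SE 0.08, limma adjusted p = 3e-15). Ferritin genes have many processed copies in the genome, and how reads that fit several places were counted is not given in the sources used here.

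Of 8 carbonyl and other detoxification enzymes 5 were tested, and all 5 were called lower in P15 than in P0, beside 40.9% of all genes tested, with a median log2 fold change of -0.84. The largest falls were those of UGDH, UDP-glucose dehydrogenase (-1.77, SE 0.04, limma adjusted p = 5.3e-23) and EPHX1, microsomal epoxide hydrolase (-1.24, SE 0.05, limma adjusted p = 1.2e-16). At P7, 4 of the 5 were called higher than at P3, beside 30.3% of all genes tested. AKR1B10, AKR1C1 and AKR1C2 had means over the 16 libraries below 1 CPM and were not tested, and AKR1C paralogs share reads. The other 3 targets were called higher in P15 than in P0, beside 45.3% of all genes tested, PIR by 2.10 (SE 0.07, limma adjusted p = 2.8e-19), OSGIN1 by 1.84 (SE 0.10, limma adjusted p = 7.7e-15) and TRIM16L by 0.38 (SE 0.07, limma adjusted p = 3.1e-05). At P3, PIR and TRIM16L had fallen by 0.95 and 1.09 and OSGIN1 had risen by 0.52.

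SLC7A11 is also a target of ATF4, the factor of the amino acid stress response. All 5 genes of ATF4 and its targets were called higher in P15 than in P0, beside 45.3% of all genes tested, with a median log2 fold change of 1.08, among them DDIT3 (2.6, SE 0.07, limma adjusted p = 2.1e-20) and the asparagine synthetase ASNS (1.78, SE 0.05, limma adjusted p = 7.6e-21). ATF4 itself rose by 0.17 (SE 0.03, limma adjusted p = 7.8e-06). At P3, ASNS (-1.29), TRIB3 (-0.76) and ATF4 (-0.18) were called lower than in P0, as SLC7A11 was (-0.22), and DDIT3 (0.65) and CHAC1 (0.23) were called higher. The part of ATF4 in the changes of SLC7A11 was not tested.

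**Figure D4:**
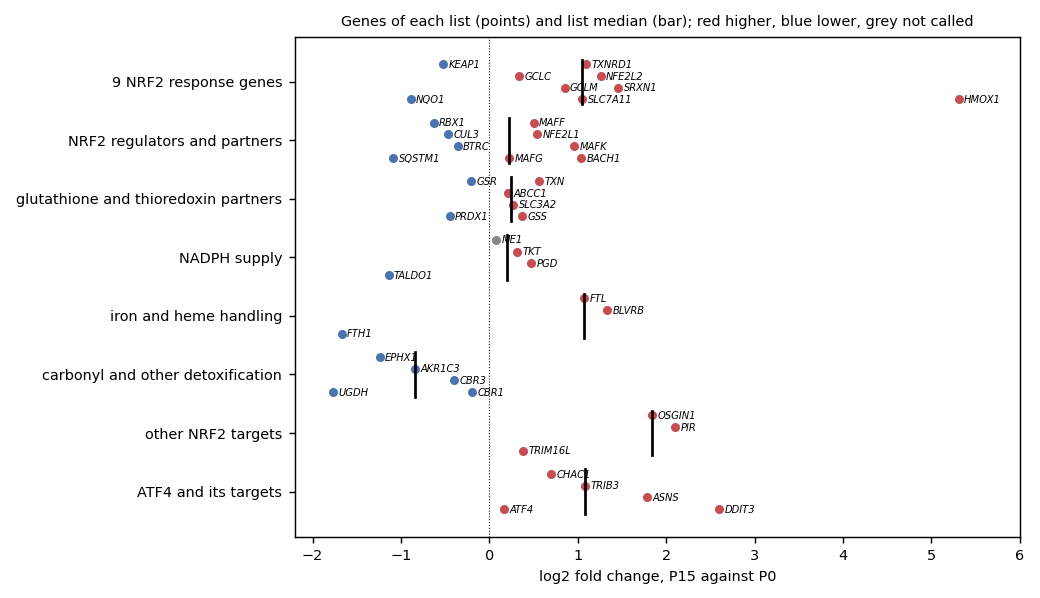
Log2 fold change from P0 to P15 (horizontal axis) of the 9 genes and of the tested genes of 7 related lists (points, red called higher, blue called lower, grey not called), with the median of each list as a bar. The 5 detoxification enzymes lie below 0, the other NRF2 targets and the ATF4 list above it, and the remaining lists on both sides.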

How the data were processed

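RNA-seq of 16 libraries (4 each of P0, P3, P7 and P15) was used. Per the labels and methods, the authors aligned paired-end reads to GRCh38 with STAR 2.6.1a, counted them with featureCounts, and deposited log2(CPM + 1) with 2 decimals. The annotation release, strand setting and treatment of multiply mapped reads are not given in the sources used here. The deposited values show neither the quantile normalization nor the centring on medians that the methods name, since 21519 to 23127 genes are above 0 in a library and the medians of genes are not 0.

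The 9 genes and the lists around them were chosen with earlier results of these data known, and 1 gene of a list is not reported here. Values were used as deposited. limma 3.58.1 (R 4.3.3) was fitted with 1 coefficient per phase over the 16 libraries and a variance trend, for the 13249 genes whose mean exceeded 1 CPM, and p-values were adjusted over all of them (Benjamini-Hochberg). The procedure was tested on simulated data. Fold changes are on the log2(CPM + 1) scale. Differences between 2 genes within a library were compared by exact permutation tests. All 9 genes were named, and so were, of the called genes of each list, up to 2 with the largest rise and up to 2 with the largest fall from P0 to P15, with further genes of a list added after their values were seen. Estimated reads are CPM times the estimated total. Coordinates and transcript lengths are from GENCODE version 44 (GRCh38) and promoters from RefSeq. Tables and figures were made with Python 3.11.15, numpy 2.4.6, pandas 2.3.3 and matplotlib 3.10.9. The fits were repeated without a filter, with 1 CPM required in all libraries, with pseudocounts of 0.1 and 5, after quantile normalization, after a median shift, with the replicate number as a block, without the variance trend, with only the 2 phases compared and with each library left out. The labels give no batch.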

Additional observations from a re-analysis of the deposited data

How the results depend on the processing

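Counts of genes called kept within 1.5 times their value in each comparison, except that of genes called lower from P3 to P7. It was 1 (GCLM) and became 2, with KEAP1, when 1 CPM was required in all libraries, with only the 2 phases compared and with the replicate number as a block, taken from the sample descriptions or from the titles (2 under each). With 1 library left out it ranged from 1 to 2, with 2 without replicate 2 or 4 of P0, 1 or 4 of P7, or 3 or 4 of P15. The change of KEAP1 in these settings was -0.13 to -0.10, with limma adjusted p-values of 0.027 to 0.049. The block changed no other call. Deviations from the phase mean correlated at -0.15 to 0.22 between libraries of a shared number. Libraries of unlike numbers were not compared, so these values do not settle whether the numbers pair libraries. The change of GCLM minus GCLC from P7 to P15 passed the threshold with a pseudocount of 5 (0.30) and with quantile normalization (0.37). With 1 library left out it ranged from 0.26 to 0.34 and passed without replicate 3 of P15. NFE2L2 minus KEAP1 from P3 to P7 ranged from 0.13 to 0.21 and passed without replicate 4 of P7. The other changes within libraries stayed on their side of the threshold with each library left out. From P0 to P15, 5 of the 9 genes rose by 2-fold or more. This count was 4 with a pseudocount of 5, after quantile normalization and without replicate 3 of P15. From P7 to P15 it was 3, and it was 2 with a pseudocount of 5. No change of the 9 genes turned its direction. NFE2L2 from P0 to P3 was not called after a median shift (-0.07), and TXNRD1 from P3 to P7 was not called without a filter (0.11). NFE2L2 from P3 to P7 was called after quantile normalization (0.09).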

Other observations

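Genes whose log2 values, centred on their mean over the 16 libraries, lay closest to those of each gene were named by the smallest root mean square difference among the 13249 genes tested. For HMOX1 these were TSHZ3 (0.177), TMC5 (0.184) and EPGN (0.237), which had means of 0.00 to 0.29 on the log2 scale in P0, P3 and P7 and of 5.08, 5.16 and 5.70 in P15. These 3 genes passed the filter on low values through P15, and at such low levels the pseudocount of 1 sets the size of their rise and so their distance from HMOX1. Only 2 genes lay within 0.2 of HMOX1. For NFE2L2 they were TMEM69 (0.056), CLIP4 (0.067) and FXR1 (0.069), and 563 genes lay within 0.2. For KEAP1 they were SLC7A1, SMC3 and HNRNPU, with 2149 genes within 0.2, and for NQO1 they were EFR3A, KLHL5 and RHOBTB3, with 668. For GCLM they were CDK1, VEZT and FKBP4, with 1092 genes within 0.2. For GCLC they were RB1CC1, MBTPS1 and ARHGAP12, with 1588, and for TXNRD1 AGTPBP1, DHRS7 and YBX3, with 648. SLC7A11 was closest to TBC1D8 (0.128), with 135 genes within 0.2, and SRXN1 to PIM3 (0.198), the only gene within 0.2. Among the 9 genes themselves, GCLM and TXNRD1 were closest (0.157), and NQO1 and HMOX1 farthest apart (2.49).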
